A study of Homo sapiens with 2 samples.

Results

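The mitochondrial protein import machinery, with the chaperones and proteases that fold and clear imported proteins, was examined in HT1080 cells infected with a cMyc shRNA and in control cells infected with a non-targeting one. The members were the genes whose symbol starts with TOMM or TIMM and a digit, together with 27 genes listed by name. The array annotation named 40 of these 50 genes, which are 40 of the 14884 genes it named in all. The TOMM and TIMM genes were found through that annotation, so only genes listed by name could be absent. They comprised 10 TOMM genes, 13 TIMM genes and 17 of the listed genes. The 10 listed genes without a named probe set, among them HSPE1, LONP1, CLPP, GRPEL1, GFER and C1QBP, were not analysed here. A gene with several probe sets was represented by the brightest.

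HT1080 is an established human fibrosarcoma cell line. Expression was read on 2 Affymetrix Human Gene 2.0 ST arrays, which summarise several short probes per probe set to a log2 value. One array held total RNA of the non-targeting control culture (the control array), the other that of the cMyc shRNA culture (the cMyc shRNA array). Both cultures were grown in DMEM and harvested 48 hours after infection with shRNA virus per the treatment protocol, whereas the series design speaks of transfection. With 1 array in each group no replicate spread could be measured and no test was possible, and each difference describes these 2 arrays.

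Nearly all mitochondrial proteins are made in the cytosol from nuclear genes and are threaded into the organelle. The TOM complex of the outer membrane is the common gate, the TIM23 and TIM22 complexes of the inner membrane take over for matrix proteins and for carrier proteins, and the HSP70 and HSP60 chaperones of the matrix pull in and fold the chains. MYC is a transcription factor that raises growth genes, and genes of mitochondrial biogenesis are a known class of its targets.

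The probe set of MYC itself read 7.09 in control cells and 6.16 after the cMyc shRNA, a log2 difference of -0.93 or 1.91-fold lower. All log2 differences below are cMyc shRNA minus control shRNA. Over 416 genes with several measured probe sets, probe sets of the same gene gave a technical SD of 0.34 on this scale, which does not include variation between cultures. Of the named cell type markers, 7 of 8 mesenchymal, 5 of 9 epithelial, 2 of 4 haematopoietic and 2 of 5 endothelial ones reached the median of all probe sets (3.70) in their mean. FN1 (12.4 in control cells) and VIM (9.94) were among the mesenchymal ones and S100A4 (3.06) lay below the median, while the epithelial KRT18 (9.09) and CLDN3 (6.09), the endothelial TIE1 (6.21) and the haematopoietic CD68 (10.4) were above it and EPCAM (2.73) and PECAM1 (2.82) below it. All 12 interferon-stimulated genes of a context list were over 2-fold higher after the cMyc shRNA (median 4.40), against 2.01% of all measured genes. All 12 mitosis genes of another list were at least 2-fold lower (median -2.70), against 4.0%. Both lists were chosen with earlier results of these data known, so these counts describe the listed genes only. The part of these genes in the differences below was not tested. In bulk RNA, fewer cells of a type and less RNA per cell cannot be told apart.

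The import genes were mostly lower after the cMyc shRNA, by a modest amount. A gene counted as measured when its mean over both arrays reached 3.70, and 39 of the 40 named members did. Of these, 30 had a log2 difference below 0 (76.9%), against 51.3% of all 10258 measured genes. The median difference of the members was -0.32 (1.25-fold lower), with quartiles of -0.50 and -0.08, while the median over all measured genes was -0.01.

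At least 2-fold lower were 5 members (12.8%): TOMM34, TIMM21, TIMM9, TOMM40 and TRAP1. The background was 4.0% of all measured genes, and 5.17% of the 6018 genes at or above the 75th percentile of level, where 5 of 36 members were past it (13.9%). At least 2-fold higher was 0 of the 39, where the background was 2.01%. The rule of 2-fold fell in a gap among the members: TRAP1 was the nearest inside it at -1.04 and TIMM13 the nearest outside it at -0.63. At 1.5-fold TIMM13 was added, giving 6 members (15.4%) lower against a background of 11.9%, and 0 higher against 8.77%. A total of 18 members (46.2%) lay below 0 by more than the technical SD, against 23.4% of all measured genes, and 0 lay above 0 by more than it, against 20.1%. Within the SD lay 56.5% of all measured genes.

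**Figure D1:**
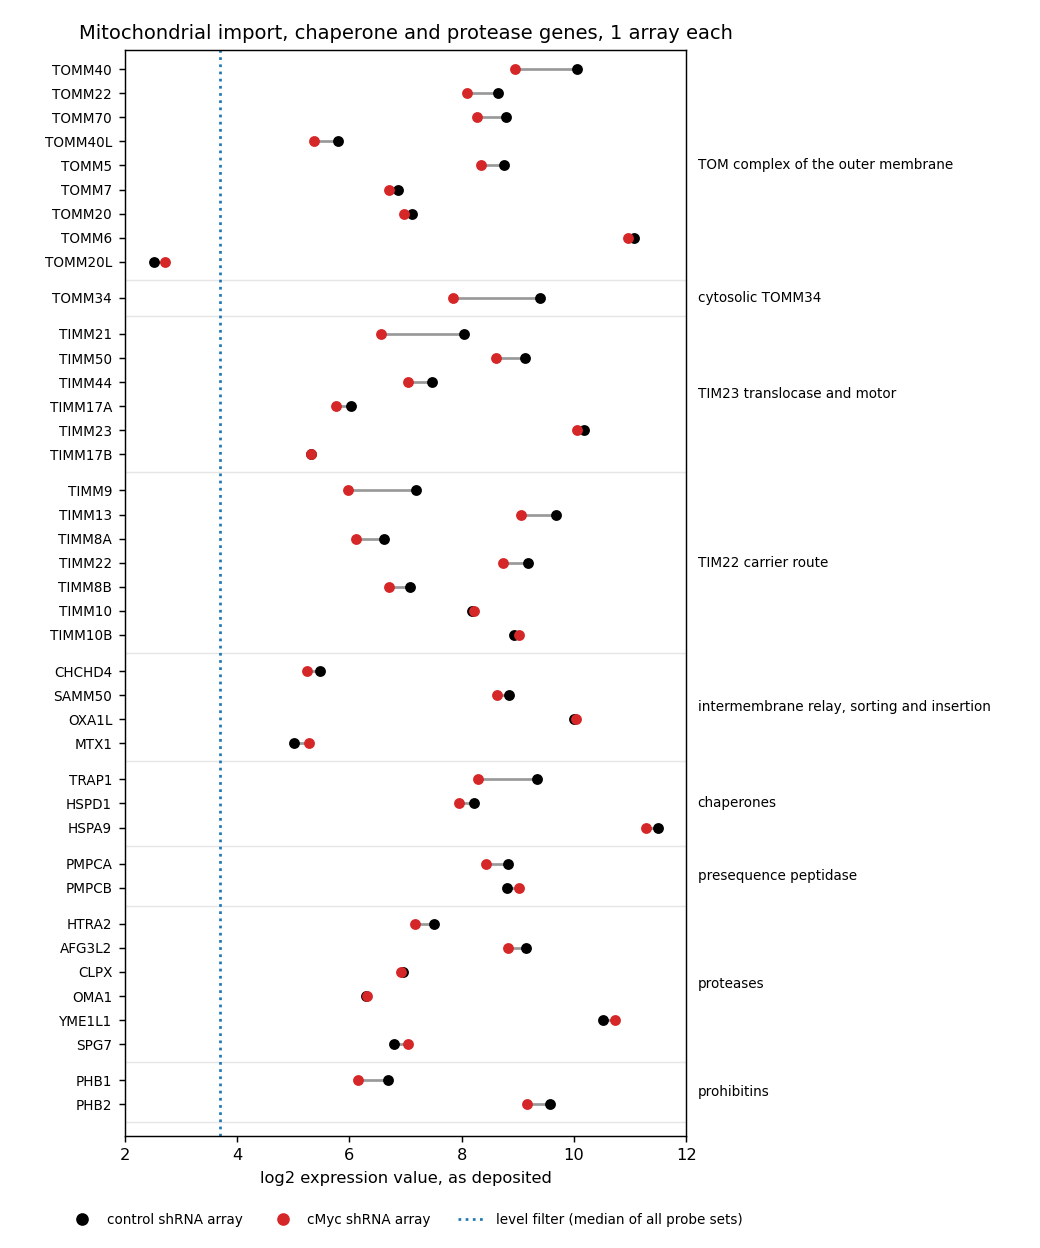
Log2 expression value of each of the 40 named members (horizontal axis) on the control shRNA array (black) and the cMyc shRNA array (red), grouped by role. Each point is 1 array, so there are no error bars, and the longest gaps are those of TOMM34, TIMM21, TIMM9, TOMM40 and TRAP1. TOMM20L alone lies left of the level filter at 3.70.

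In the TOM complex all 8 measured genes, the paralogue TOMM40L among them, were lower on the cMyc shRNA array. Their median was -0.43 (1.34-fold lower). Of all measured genes 51.3% were below 0. Within the technical SD lay 3 of the 8 (TOMM7, TOMM20 and TOMM6), as did 56.5% of all measured genes. TOMM40, the beta-barrel that forms the channel, read 10.05 in control cells and 8.95 after the cMyc shRNA, which is 2.14-fold lower. Its other probe set read 8.18 and 7.20, or 1.97-fold lower, so both probe sets gave the same direction and nearly the same size. TOMM40L, a paralogue of the channel protein, read 5.80 and 5.37 (-0.43).

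The receptors of the gate differed in how far they moved. TOMM22, the central receptor that holds the complex together, read 8.65 and 8.10 (-0.55). TOMM70, the receptor for carrier precursors that arrive with cytosolic chaperones, read 8.79 and 8.27 (-0.52). TOMM20, the receptor for presequences, read 7.12 and 6.97 (-0.15), within the technical SD.

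Among the small TOM subunits that steady the complex, TOMM5 read 8.76 and 8.34 (-0.42). TOMM7 read 6.87 and 6.71 (-0.16), and TOMM6 was nearest to 0 in the complex at 11.1 and 11.0 (-0.11). TOMM20L, a paralogue of TOMM20, read 2.52 and 2.72, below the level filter on both arrays, and no difference is read from it.

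TOMM34 had the lowest difference of all members. Its protein is named after the TOM complex but is mainly a cytosolic co-chaperone that binds HSP70 and HSP90. It read 9.39 in control cells and 7.84 after the cMyc shRNA, which is 2.92-fold lower, and 122 of the 10258 measured genes had a lower difference. Without it the median of the members was -0.30 and 4 members were at least 2-fold lower, a setting chosen after seeing the data.

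The TIM23 complex passes presequence proteins through or into the inner membrane. Of its 6 measured genes 5 were lower after the cMyc shRNA, with a median of -0.35, where 51.3% of all measured genes were below 0. TIMM21, which tethers TIM23 to the TOM complex and also escorts respiratory chain subunits to their assembly, read 8.03 and 6.56, or 2.78-fold lower. Of all measured genes, 142 had a lower difference than TIMM21.

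The rest of the TIM23 complex moved less. TIMM50, its receptor on the intermembrane side, read 9.12 and 8.61 (-0.51), and TIMM44, which anchors the HSP70 motor at the channel exit, read 7.47 and 7.03 (-0.43). TIMM23, the core channel protein, read 10.2 and 10.1 (-0.11). The alternative partners of TIMM23 read 6.02 and 5.76 for TIMM17A (-0.27) and 5.31 on both arrays for TIMM17B, whose difference of 0.00 was negative under centring and under lowess. The gap between TIMM17A and TIMM17B, -0.27, was smaller than the technical SD. The peripheral tether TIMM21 was thus far below the channel subunits in difference, on 1 probe set each.

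The TIM22 route inserts carrier proteins, which small TIM chaperones ferry across the intermembrane space. The members held 7 genes of this route, all with a TIMM symbol, and all 7 were measured. Of these, 5 were lower after the cMyc shRNA, with a median of -0.45, where 51.3% of all measured genes were below 0. TIMM22, the insertase itself, read 9.18 and 8.73 (-0.45). TIMM9 read 7.18 and 5.98, or 2.31-fold lower, whereas TIMM10, with which it forms a hexameric chaperone ring, read 8.18 and 8.22 (0.03, and -0.01 when each array was centred on its median). The difference of TIMM9 lay 1.24 below that of TIMM10. TIMM10B, which docks the ring on TIM22, read 8.93 and 9.02 (0.09).

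The other small TIM ring did not show such a gap. TIMM13 read 9.68 and 9.05, or 1.55-fold lower, and its partner TIMM8A read 6.62 and 6.12 (1.41-fold lower). TIMM8B, the paralogue of TIMM8A, read 7.09 and 6.71 (1.30-fold lower). As deposited all 3 genes were lower by more than the technical SD, as were 23.4% of all measured genes, but TIMM8B lay within it after quantile normalization (-0.30).

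Genes for oxidative folding, outer membrane sorting and insertion from the matrix side had differences from -0.23 to 0.27. All 4 measured genes lay within the technical SD, as did 56.5% of all measured genes, and their median was -0.09. CHCHD4, the oxidoreductase that traps small cysteine-rich proteins in the intermembrane space, read 5.47 and 5.24 (-0.23). SAMM50, which builds beta-barrels such as TOMM40 into the outer membrane, read 8.85 and 8.62 (-0.22), and MTX1, a metaxin that works with it, read 5.01 and 5.28, the highest difference of all measured members at 0.27. OXA1L, the insertase for proteins made inside the matrix, read 9.99 and 10.04 (0.05).

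All 3 measured chaperones were lower on the cMyc shRNA array, but only TRAP1 by 2-fold. Of all measured genes 51.3% were below 0 and 4.0% at least 2-fold lower. TRAP1, the mitochondrial member of the HSP90 family, read 9.33 and 8.30, or 2.05-fold lower. Its log2 difference was -0.99 under both quantile normalization and lowess, just short of 2-fold. HSPA9, the mitochondrial HSP70 (mortalin) that drives the import motor, read 11.5 and 11.3 (-0.20), and HSPD1, the HSP60 folding chamber, read 8.21 and 7.95 (-0.27), both within the technical SD. RefSeq lists pseudogenes with the symbol of 18 of the 40 named members. HSPD1 has 22 and PHB1 21, and of the members at least 2-fold lower TOMM40 has 4 and TIMM9 3. Whether the probes of these genes also read such copies was not tested.

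The peptidase that cuts off presequences on arrival has a catalytic beta subunit, PMPCB, and a substrate-binding alpha subunit, PMPCA, and these lay on opposite sides of 0. PMPCA read 8.82 and 8.43 (-0.39), with its other probe set at 6.18 and 6.01 (-0.17), and PMPCB read 8.80 and 9.02 (0.23). The difference between the subunits was -0.61 on the brighter PMPCA probe set. The 2 PMPCA probe sets differed in size but not in direction.

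The proteases showed no common direction. Of the 6 measured, 3 were below and 3 above 0, all within the technical SD as deposited (56.5% of all measured genes), and the median was -0.02 as deposited, 0.05 after quantile normalization and 0.00 after lowess. HTRA2, a serine protease of the intermembrane space, read 7.51 and 7.18 (-0.33). With each array centred on its median, HTRA2 (-0.38) and AFG3L2 (-0.37) lay beyond the SD. AFG3L2 and SPG7, which build the matrix-facing AAA protease together, read 9.15 and 8.83 (-0.32) and 6.79 and 7.04 (0.25). YME1L1, the AAA protease facing the intermembrane space, read 10.5 and 10.7 (0.21). CLPX, the unfoldase of the CLPXP protease, differed by -0.05, which turned to 0.03 after quantile normalization, and the stress-activated OMA1 by 0.01, which turned to -0.04 with centring.

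The prohibitins form ring scaffolds in the inner membrane that hold the matrix-facing AAA protease. PHB1 read 6.69 and 6.15 (1.45-fold lower) and PHB2 read 9.57 and 9.17 (1.32-fold lower). Both partners lay below 0 by more than the technical SD, as did 23.4% of all measured genes, and 0.13 apart.

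**Figure D2:**
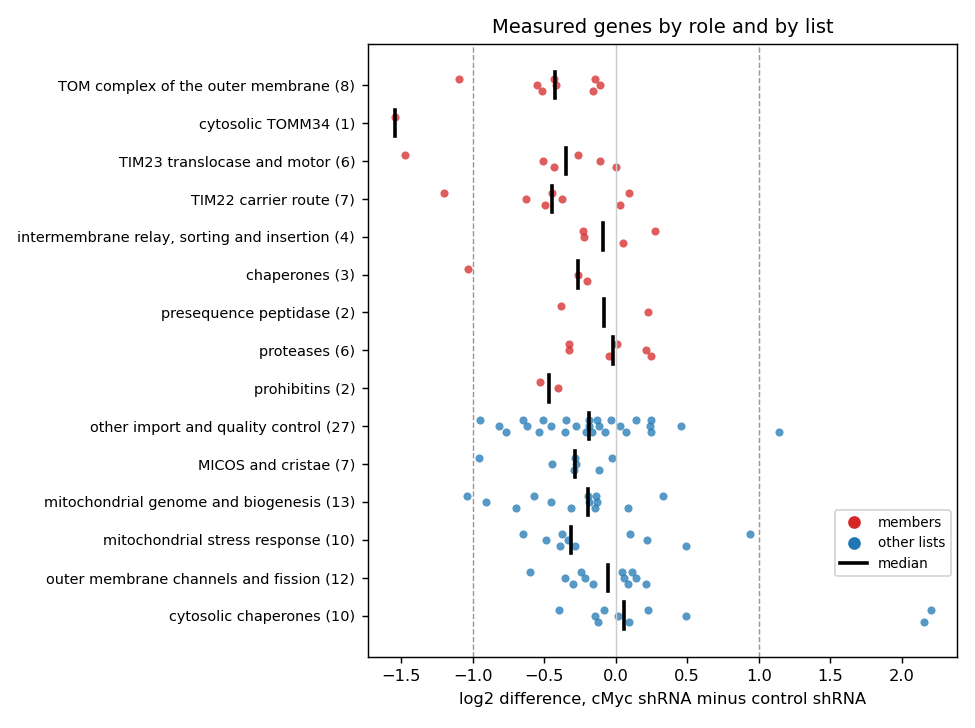
Log2 difference (cMyc shRNA minus control shRNA, horizontal axis) of each measured gene, by role of the members (red) and in other lists (blue), with the number of genes in brackets and the median as a black bar; dashed lines mark 2-fold. TOM, TIM23 and TIM22 medians lie between -0.45 and -0.35 and that of the proteases at -0.02.

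The TOMM and TIMM genes held most of the larger differences. Of the 22 measured, 19 were below 0 (86.4%), with a median of -0.43, and 4 were at least 2-fold lower (18.2%). Over all measured genes these shares were 51.3% and 4.0%. Of the 17 measured genes listed by name, 11 were below 0 (64.7%), with a median of -0.22. TRAP1 was the 1 at least 2-fold lower (5.88%), a share near that over all measured genes. No test of the difference between these sets was possible.

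MYC with its partner MAX binds the E-box CACGTG and the variant CACGCG. The windows from 250 bases before to 50 bases after the gene start were read from RefSeq (GRCh38.p14) for 36 of the 39 measured members, using the first window listed where a gene has several; TOMM5, TIMM8B and YME1L1 had no entry. Both strands were searched, and no motif can overlap another of the 3 described here, though CACGCG can overlap its own reverse complement. CACGTG stood in 5 of the 36 windows (13.9%), against 9.87% of 7900 windows of measured genes and 7.43% of all 27305. These 5 genes were TIMM8A, HSPD1, HSPA9, TOMM20 and TIMM10, with log2 differences from -0.50 to 0.03 and a median of -0.20, and none of the 5 members at least 2-fold lower had this motif in the window.

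The variant CACGCG was found in 11 of the 36 windows (30.6%), against 18.1% of those of measured genes and 11.4% of all. The median difference of the 11 genes was -0.39, against -0.27 for the 25 without it. With the motif the differences ran from -1.55 to -0.05 (CLPX), and without it from -1.47 (TIMM21) to 0.27, so the ranges largely overlapped. At least 2-fold lower were 3 of the 11 (TOMM34, TOMM40 and TRAP1) and 2 of the 25, where the background was 4.0% of all measured genes. The motif CCGGAAG, a core bound by ETS factors such as GABPA, was found in 12 windows (33.3%), against 18.2% and 10.7%. The 12 genes had a median of -0.13 and the 24 without it -0.33. A match is a description of the letters and no measure of binding.

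The windows of TOMM34 and TRAP1, 2 members at least 2-fold lower, are shown because each holds CACGCG more than once. SAMM50 (-0.22) also holds it more than once and is not shown. TOMM6 (-0.11), also not shown, has matches starting 250 and 248 bases before the gene start. These overlap, so they are a single site read on both strands. The windows of HSPA9 and TIMM10 are shown because they hold the E-box CACGTG with differences of -0.20 and 0.03. Capitals mark CACGCG, or CGCGTG where it lies on the other strand, in TOMM34 and TRAP1, and CACGTG in HSPA9 and TIMM10. Each is written 5′ to 3′ along the gene, and all 4 genes lie on the minus strand: TOMM34 at chr20:44960348-44960647, TRAP1 at chr16:3717475-3717774, HSPA9 at chr5:138575352-138575651 and TIMM10 at chr11:57530705-57531004. In TOMM34 the matches start 140 and 108 bases before the gene start, in TRAP1 139 and 18 bases, in HSPA9 19 bases and in TIMM10 1 base.
TOMM34: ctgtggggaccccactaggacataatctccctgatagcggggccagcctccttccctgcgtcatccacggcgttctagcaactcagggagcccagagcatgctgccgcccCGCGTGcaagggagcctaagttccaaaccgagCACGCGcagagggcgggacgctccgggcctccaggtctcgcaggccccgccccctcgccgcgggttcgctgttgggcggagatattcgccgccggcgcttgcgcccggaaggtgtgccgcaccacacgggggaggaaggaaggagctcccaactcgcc
TRAP1: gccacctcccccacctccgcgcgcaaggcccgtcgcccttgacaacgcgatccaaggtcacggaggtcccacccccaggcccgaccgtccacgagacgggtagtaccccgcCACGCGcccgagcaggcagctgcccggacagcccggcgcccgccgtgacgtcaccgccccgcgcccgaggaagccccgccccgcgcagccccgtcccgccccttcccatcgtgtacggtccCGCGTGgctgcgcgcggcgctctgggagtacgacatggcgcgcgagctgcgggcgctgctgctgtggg
HSPA9: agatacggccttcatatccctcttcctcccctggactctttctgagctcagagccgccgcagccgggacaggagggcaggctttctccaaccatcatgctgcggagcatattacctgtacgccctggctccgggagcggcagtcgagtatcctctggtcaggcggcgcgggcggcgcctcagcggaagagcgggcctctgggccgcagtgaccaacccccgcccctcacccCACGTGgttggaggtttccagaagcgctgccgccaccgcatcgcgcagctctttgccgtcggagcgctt
TIMM10: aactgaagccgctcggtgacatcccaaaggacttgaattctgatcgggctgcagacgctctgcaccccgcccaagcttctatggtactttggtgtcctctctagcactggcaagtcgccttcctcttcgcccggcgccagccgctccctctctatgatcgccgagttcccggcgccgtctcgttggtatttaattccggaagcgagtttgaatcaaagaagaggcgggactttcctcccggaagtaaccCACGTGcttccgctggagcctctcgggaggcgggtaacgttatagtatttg

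Other genes of import and quality control outside the members, from a wider list without cytosolic chaperones, were lower by a smaller median. Of 27 measured genes 19 were below 0 (70.4%, against 51.3% of all measured genes), with a median of -0.19. The rule of 2-fold picked 1 gene, which was higher. MSTO1, a regulator of mitochondrial morphology, was lowest at 4.58 and 3.63 (-0.95), and its cMyc shRNA value lay below the level filter of 3.70. Next came UBQLN2, a ubiquitin-binding shuttle protein, at 8.63 and 7.81 (-0.82). PNPT1, an RNA-degrading exonuclease of the organelle that is also known as interferon-inducible, was the 1 gene past 2-fold the other way, at 8.91 and 10.05 (2.20-fold higher).

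Genes of cristae structure and of the mitochondrial genome were also mostly lower, where 51.3% of all measured genes were below 0. All 7 measured MICOS and related genes were below 0, with a median of -0.28, from APOO at 6.38 and 5.42 (-0.96) and APOOL at 7.54 and 7.09 (-0.44) to MICOS13 at -0.03. Of 13 measured genes for mitochondrial DNA and its expression, 11 were below 0, with a median of -0.19. TWNK, the replicative helicase of mitochondrial DNA, read 7.99 and 6.96 (2.05-fold lower) and FASTKD3, an RNA-binding protein of the organelle, read 5.99 and 5.08 (-0.91). MTERF1, a transcription termination factor, lay farthest the other way at 0.33.

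The mitochondrial ribosomal proteins are the nearest gene class by destination, since they are imported through TOM and TIM23. Of the 77 measured, 50 were below 0 (64.9%), with a median of -0.20, and 1 was at least 2-fold lower (1.30%). The corresponding values of the members were 76.9%, -0.32 and 12.8%. The 4 measured SLC25 carriers, clients of the TIM22 route, had a median of -0.17 with 0 at least 2-fold lower. Their differences ran from -0.31 to 0.81, at a median level of only 4.61 over both arrays. These are counts on the same pair of arrays, and no test of a difference between the classes was possible.

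**Figure D3:**
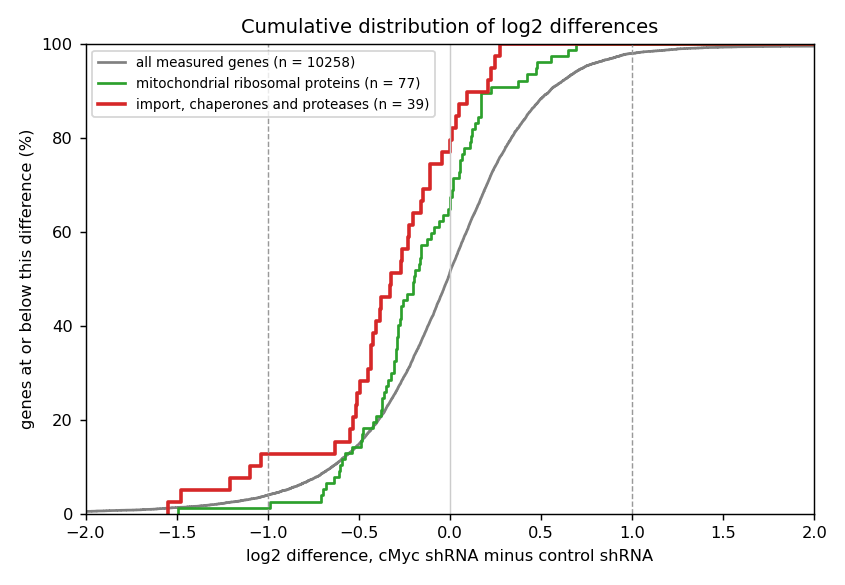
Percent of genes (vertical axis) at or below each log2 difference (cMyc shRNA minus control shRNA, horizontal axis, shown from -2 to 2) for the 39 measured members (red), 77 mitochondrial ribosomal protein genes (green) and all 10258 measured genes (grey); dashed lines mark 2-fold. The curve of the members crosses 0 at 76.9% and that of all genes at 51.3%.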

How the data were processed

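The deposited table holds log2 expression values for 53617 probe sets, from 1.41 to 13.9. Log2 was inferred from this range. The authors made the values with Affymetrix Expression Console, per the submitters' processing notes; not given in the sources used here are its version, background correction and normalization. The array medians were 3.68 (control) and 3.73. The table has no detection calls, and the number of arrays limits the precision. GEO's platform annotation named 16098 probe sets with 1 symbol each, and the identifiers of all 40 named members were found in RefSeq GRCh38.p14.

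Differences, medians and counts by a rule of 2-fold were computed from these values in Python 3.11.15 (pandas 2.3.3, numpy 2.4.6, statsmodels 0.14.6). In simulated data the rule recovered 48 of 50 genes set 4-fold lower, but only 28 of 50 set 2-fold lower. The technical SD came from how far the 2 brightest probe sets of a gene lay apart in difference. The members and lists were chosen with earlier results of these data known. Every named member could be described; of each other list the 2 measured genes farthest in the direction of its median and the 1 farthest the other way were named. A set of 7 alternatives was planned: 3 scalings, 2 level filters, the mean over probe sets and a rule of 1.5-fold.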

Additional observations from a re-analysis of the deposited data

How the results depend on the processing

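Among the members, the count at least 2-fold lower was 4 or 5 under every scaling, filter and probe set rule, and 6 at 1.5-fold. TRAP1 was the gene lost, under quantile normalization and lowess. The median of the members stayed between -0.37 and -0.28, and MYC between -0.98 and -0.87. All 351 other values, of single members and of list medians, moved by less than the technical SD. Many of them had little or no room to move, so this count is no measure of robustness. Centring shifts every gene alike and the level filters leave the difference of a single member unchanged. The mean over probe sets can change only PMPCA and TOMM40 among the members. The sign of 4 members close to 0 (CLPX, OMA1, TIMM10 and TIMM17B) changed under at least 1 scaling. Over all genes, the 1.5-fold rule gave 1224 lower and 900 higher in place of 410 and 206 by construction, and 126 were higher among the 6018 genes at or above the 75th percentile of level. No paired analysis was possible because each group has 1 array.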

Other observations

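The mitochondrial stress response list holds ATF4-type factors and their targets, as well as HSF1, DELE1 and EIF2AK1. It had 10 measured genes, 6 below and 4 above 0, with a median of -0.31. Of these, 0 reached 2-fold in either direction. ASNS, asparagine synthetase, read 6.89 in control cells and 6.25 after the cMyc shRNA (-0.65), and HSF1, the heat shock transcription factor, read 7.44 and 6.95 (-0.49). SESN2, a stress-induced regulator of growth signalling, lay farthest the other way at 7.08 and 8.01 (1.92-fold higher).

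Outer membrane channels and fission genes had 12 measured members, 6 below and 6 above 0, with a median of -0.06. VDAC1, the main metabolite pore of the outer membrane, read 9.23 and 8.62 (-0.60), and FUNDC1, a mitophagy receptor, 6.15 and 5.79 (-0.36), while the fission GTPase DNM1L was highest at 0.21. The cytosolic chaperone list had 10 measured genes of 26 and a median of 0.05. The stress-inducible HSP70 genes HSPA1A (10.1 and 12.3, 4.60-fold higher) and HSPA1B (9.93 and 12.1, 4.45-fold higher) were its 2 genes past 2-fold, and as near-identical copies they cannot be separated by signal. PTGES3, an HSP90 co-chaperone, lay farthest the other way at -0.40. The mitochondrial HSP70 and HSP60 genes HSPA9 and HSPD1 differed by -0.20 and -0.27 on the same arrays.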
